A study of Homo sapiens with 10 samples.

Results

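The collagen chain genes are the protein-coding genes whose symbol is COL, a type number, A and a chain number, each gene encoding the chain of that number of a collagen type. Of the 19665 genes listed in both count tables of the series, 41 are of this kind. They were split by assembly form into 11 fibrillar genes, 5 type IV genes, whose product is the network of basement membranes, and 25 genes of other classes. A further 3 genes, COL4A3, COL10A1 and COL28A1, were listed in the HEK293T table alone and were not members. The series profiled mRNA by RNA-seq in cells with (WT) and without (KO) the KRAB zinc finger protein gene ZNF274, in HEK293T, a human embryonic kidney cell line, and in neural progenitor cells (NPCs). The question was which transcripts change when this repressor of transcription is lost.

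There were 4 groups: WT HEK293T (3 libraries), ZNF274 KO HEK293T (3), WT NPCs (2) and ZNF274 KO NPCs (2). In both cell types the KO was made by CRISPR-Cas9 with guides on either side of ZNF274, and the edited cells were grown up as clones, by sorting of single cells in HEK293T and by picking of colonies in the H1 embryonic stem cell line. The NPCs were derived from H1 cells by neural induction through embryoid bodies. The design text speaks of independent WT and KO clones and a legend of the study of parental lines for the NPCs, but no label ties a library to its clone or line, so the spread between libraries may hold differences between clones, between differentiations or between preparations. In NPCs each arm had 2 libraries, which limits every NPC value given here.

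Collagens are the main structural proteins of the extracellular matrix. Their chains, alike or different according to the type, wind around each other into a helix in the endoplasmic reticulum after hydroxylation of their prolines and lysines. Fibrillar procollagens are then secreted, trimmed of their propeptides and cross-linked into fibres, whereas type IV chains assemble into the sheets on which epithelia, vessels and the neuroepithelium rest. In the developing nervous system basement membrane collagens line the neural tube and the pial surface, and fibrillar collagens are better known from mesenchyme, bone, tendon and skin.

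The libraries held 18621266 to 23035490 counts on genes in NPCs and 21421013 to 32285876 in HEK293T cells. ZNF274 had 491 and 496 counts in the WT NPC libraries and 423 to 492 in the WT HEK293T libraries, and 0 counts in all KO libraries, as labelled. Levels are given as CPM, counts per library of 1000000 after TMM scaling within each cell type, and a gene was called higher or lower where the adjusted p-value of edgeR's quasi-likelihood test was under 0.05 and the fold change over 2. Of 12 neural progenitor markers 9 were called lower in KO NPCs and none higher, beside 8.36% of all genes called lower and 8.45% higher. NES (nestin) was not among them, at 2264 and 2996 CPM in WT and 3183 and 3087 CPM in KO, whereas SOX2 had 227 and 219 CPM in WT and 12.7 and 21.1 CPM in KO. The sums of the 12 overlapped, at 2976 and 4021 CPM in WT and 3266 and 3208 CPM in KO, but NES made up most of each sum. The median log2 fold change of the 12 was -3.15, with 1 above 0, beside -0.02 over all genes. The defining markers NES, SOX2 and PAX6 were present in WT NPCs. In each KO NPC library 1 of the 12 markers was at 0 counts, and in the WT NPC libraries none was. In bulk RNA, fewer cells of a type and less RNA per cell cannot be told apart.

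The amount of collagen mRNA differed widely between the cell types. Collagen genes took 0.495% and 0.369% of all gene counts in WT NPCs, in S3 and S5, and 0.903% and 0.819% in KO NPCs, in S1 and S2. In HEK293T cells they took 0.0304 to 0.0351% in WT and 0.0305 to 0.0343% in KO. The KO NPC shares lay above both WT shares, and the HEK293T groups overlapped. Most of the NPC increase was in the fibrillar class, at 0.395% and 0.237% in WT and 0.674% and 0.579% in KO. The type IV share went from 0.0561% and 0.0781% to 0.110% and 0.128%, and that of the other classes from 0.0441% and 0.0540% to 0.119% and 0.112%. A single chain dominated the KO fibrillar share, since COL1A1 held 49.3% and 58.3% of its counts, whereas in WT the leading gene was COL1A2, with 34.3% and 26.1%. Among the other classes COL8A1 held 65.4% and 67.2% of the KO counts.

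**Figure D1:**
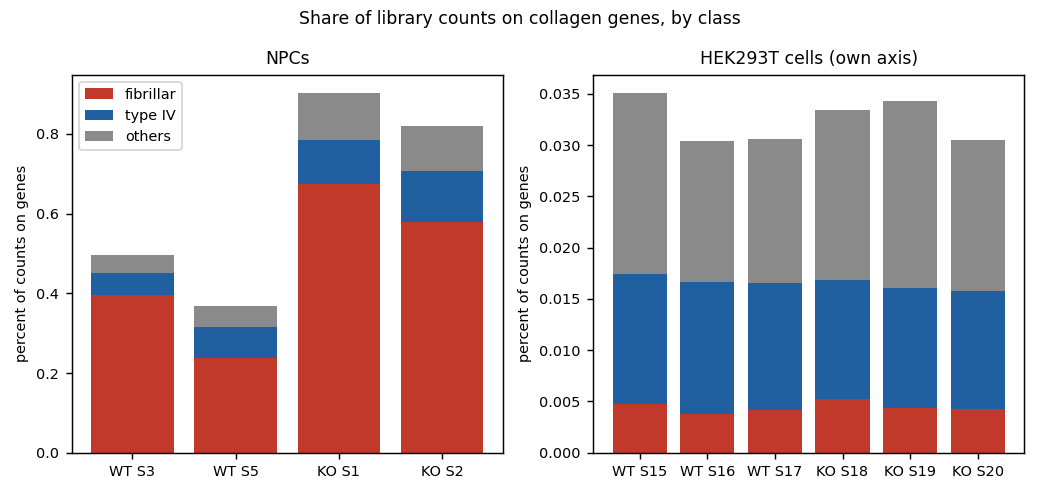
Percent of each library's gene counts that fell on the 41 collagen genes, stacked by class (fibrillar, type IV, others), with 1 bar a library. NPCs and HEK293T cells have separate vertical axes, both starting at 0. The KO NPC bars reach 0.903% and 0.819% against 0.495% and 0.369% in WT, and the HEK293T bars stay between 0.0304 and 0.0351%.

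Per kilobase of annotated exon the order of the genes also differed. In WT NPCs COL5A2 and COL1A2 led with 88.6 ± 52.9 and 88.2 ± 47.6 CPM per kilobase (SD, n = 2), ahead of COL1A1 with 66.7 ± 6.74, COL2A1 with 51.0 ± 22.4, COL26A1 with 37.7 ± 5.07 and COL11A1 with 36.7 ± 2.53. With such spreads the first 4 cannot be placed in order. In KO NPCs COL1A1 stood first at 386 ± 3.74 CPM per kilobase, followed by COL3A1 with 123 ± 40.9, COL1A2 with 92.8 ± 25.5, COL8A1 with 84.7 ± 2.37 and COL5A2 with 71.5 ± 12.1. The 4 genes after COL1A1 overlapped or nearly overlapped in their spread. In HEK293T cells COL6A1 was first in both genotypes, at 9.45 ± 1.37 CPM per kilobase in WT and 11.8 ± 1.99 in KO (SD, n = 3), followed by COL6A2, COL18A1 and COL4A2. The order depends on the length used. Per kilobase of the longest annotated transcript COL4A2 came second in HEK293T cells, at 12.2 in WT and 10.4 in KO, ahead of COL6A2 with 9.49 and 9.32, COL1A2 led in WT NPCs with 159, and in KO NPCs COL1A2 with 167 came before COL3A1 with 151. In each HEK293T group 10 of the 41 genes had no more than 3 counts in any library, against 4 in WT NPCs and 1 in KO NPCs.

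**Figure D2:**
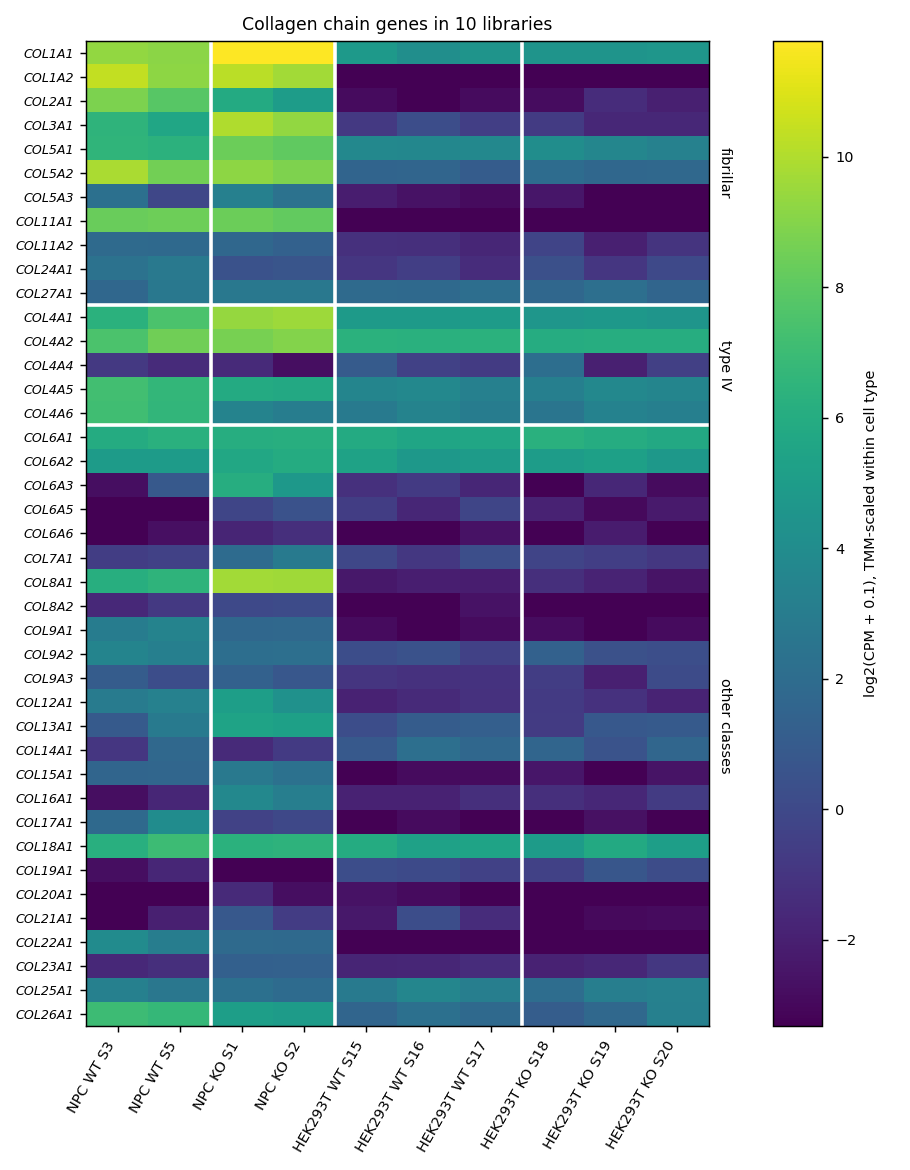
Level of each of the 41 collagen genes (rows, ordered by class and type) in each of the 10 libraries (columns, by group), as log2(CPM + 0.1) after TMM scaling within the cell type. Dark cells are near 0 counts. Several fibrillar genes, such as COL1A2, COL5A2 and COL11A1, are high in NPC libraries and absent or low in HEK293T cells. The fibrillar genes COL5A3, COL11A2, COL24A1 and COL27A1 are low in both cell types. COL6A1, COL6A2, COL18A1 and COL27A1 are alike in colour across all 10 libraries.

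In NPCs the collagen genes changed in both directions. Of the 41 genes, all of which passed the filter on low counts, 13 were called higher in KO, 9 were called lower and 19 were not called, and 27 had an unadjusted p under 0.05, against 40.3% of all genes. Over all 20577 genes tested, 16.8% were called, 8.45% higher and 8.36% lower, against 53.7% of the collagen genes, 31.7% higher and 22.0% lower. The median log2 fold change of the collagen genes was 0.41, beside -0.02 over all genes. In 20 genes both KO libraries lay above both WT libraries, in 13 below, and in 8 the groups overlapped; over all genes tested 67.1% had groups that did not overlap. By class, 3 fibrillar genes were higher and 2 lower of 11, 1 type IV gene was higher and 2 lower of 5, and 9 of the 25 others were higher and 5 lower. With either KO library, S1 or S2, left out, fewer collagen genes were called lower and fewer were called in the other classes. Over all genes, too, fewer were called then. The median log2 fold change of the collagen genes was 0.24 without S1 and 0.57 without S2, beside -0.04 over all genes in both.

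Markers of several cell types moved in the same libraries, in which 8.45% of all genes were called higher and 8.36% lower. The summed level of 10 mesenchyme and fibroblast markers was 170 and 135 CPM in WT and 428 and 329 CPM in KO. Of the 9 that were tested, PDGFRB, TWIST1 and POSTN were called higher, while TWIST2 was at 0 counts in all 4 libraries, and DCN (decorin) did not exceed 0.593 CPM. Of the 5 neural crest markers SOX10, PAX3 and SNAI2 were called higher, and the sum of the 5 went from 24.5 and 19.3 CPM to 225 and 183 CPM. The smooth muscle markers summed to 873 and 1155 CPM in WT and 3584 and 3562 CPM in KO, of which TAGLN, the only 1 of the 5 called, made up 814 and 1069 CPM in WT and 3502 and 3495 CPM in KO. ACAN and SOX9 of the 6 cartilage markers were called higher, with ACAN at 3.85 and 0.766 CPM in KO, and the 6 summed to 48.2 and 33.7 CPM in WT and 118 and 95.3 CPM in KO, while their median log2 fold change was -0.28, with 3 above 0. Among bone markers RUNX2 was called higher and ALPL lower, and the sum went from 56.7 and 65.6 CPM to 11.5 and 12.3 CPM. The endothelial markers summed to 48.6 and 175 CPM in WT and 75.6 and 100 CPM in KO, overlapping, with CDH5 and VWF called higher and KDR lower. KRT8 and KRT18 of the 5 epithelial markers were called higher, with sums of 596 and 342 CPM in WT and 1306 and 1468 CPM in KO. MAP2, DCX and ELAVL3 of the 5 neuronal markers were called lower, with sums of 1040.1 and 1136 CPM in WT and 199.6 and 154 CPM in KO. LIN28A was the only pluripotency marker called of 3 tested, and it was lower. In HEK293T cells, where 0.489% of all genes were called, no marker of any of these lists was. The part of these cell type markers in the collagen values below was not tested.

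**Figure D3:**
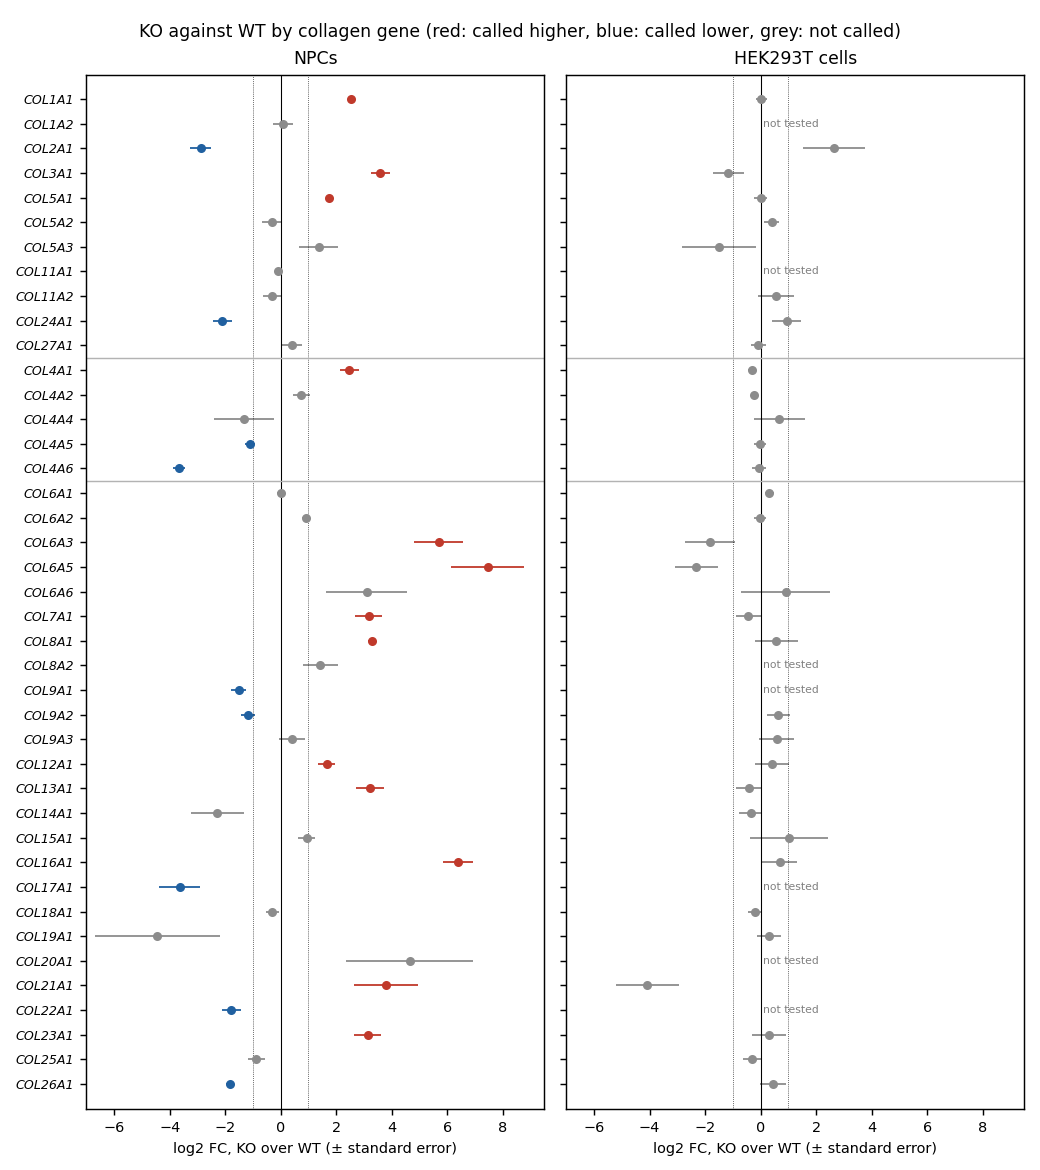
Log2 fold change of KO over WT with its standard error for each collagen gene, in NPCs (left, 2 against 2 libraries) and HEK293T cells (right, 3 against 3 libraries). Grey lines separate fibrillar, type IV and other classes, dotted lines mark a fold change of 2, red and blue mark calls, and 7 genes were too low to be tested in HEK293T cells. Points of genes with a group at 3 counts or fewer in every library, such as COL6A5, COL19A1, COL20A1 and COL21A1 in NPCs, are no measure of size. Red and blue points occur in every class in NPCs, and there are none in HEK293T cells.

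The fibrillar genes share an exon structure that was not used to choose them. In the transcript with the longest coding sequence, 48.6% of the internal coding exons of the 11 fibrillar genes were exactly 54 bases long, and 84.2% were a multiple of 9 bases, the length that encodes a single Gly-X-Y repeat of the collagen helix. The shares were 4.26% and 48.9% in the type IV genes, 15.95% and 57.1% in the other classes, and 0.75% and 14.2% over all protein-coding genes. Fibrillar genes had 51 to 67 coding exons, type IV genes 46 to 53, and the others between 2, in COL8A1 and COL8A2, and 118, in COL7A1.

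Among the fibrillar genes COL1A1, COL3A1 and COL5A1 rose in KO NPCs, COL2A1 and COL24A1 fell, and 6 were not called. COL1A1 (chromosome 17, 48261462 to 48278993, hg19) encodes the α1 chain of type I collagen, the main collagen of bone, tendon and skin. It had 644 and 558 CPM in WT and 3456 and 3504 CPM in KO, without overlap and with a narrow spread, a log2 fold change of 2.53 ± 0.12 (standard error; adjusted p = 3.46e-05). COL1A2 (chromosome 7, 94024207 to 94060539), the gene of its partner chain α2(I), had 1317 and 590 CPM in WT and 1198 and 808 CPM in KO. Those groups overlapped, and COL1A2 was not called (0.07 ± 0.35, adjusted p = 0.903). The level of COL1A1 relative to COL1A2, both per kilobase, was 0.587 and 1.14 in WT and 3.46 and 5.20 in KO. The balance of the messages for the partner chains thus lay further towards α1(I) in both KO libraries than in either WT library.

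COL3A1 (chromosome 2, 189839099 to 189877472) encodes type III collagen, which forms fine fibrils together with type I. It had 89.3 and 48.0 CPM in WT and 1025 and 634 CPM in KO, a log2 fold change of 3.59 ± 0.35 (adjusted p = 0.000536), the largest of the fibrillar class. Its neighbour COL5A2, on the opposite strand with the 3' ends 19151 bases apart, encodes a chain of type V collagen, which starts fibrils and limits their width. COL5A2 had 922 and 375 CPM in WT and 586 and 461 CPM in KO, the KO values lying between the WT values (-0.31 ± 0.37, adjusted p = 0.578). COL5A1, the gene of the other main type V chain, rose from 93.2 and 84.0 CPM to 328 and 270 CPM (1.75 ± 0.13, adjusted p = 0.000223). The level of COL5A1 relative to COL5A2 per kilobase went from 0.0663 to 0.147 in WT to 0.367 to 0.384 in KO. COL5A3 had 4.69 and 0.819 CPM in WT and 9.33 and 5.0 CPM in KO and was not called (1.37 ± 0.70, adjusted p = 0.188).

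COL2A1 encodes type II collagen, the fibrillar collagen of cartilage, which is also made by early neuroepithelium and notochord. It fell from 445 and 234 CPM in WT to 59.4 and 32.4 CPM in KO (-2.89 ± 0.37, adjusted p = 0.00178). COL24A1, a minor fibrillar gene, fell from 5.07 and 6.86 CPM to 1.28 and 1.49 CPM (-2.10 ± 0.34, adjusted p = 0.00426). COL11A1 and COL11A2 encode type XI chains, which assemble with type II. COL11A1 was abundant and did not differ by the test, at 317 and 350 CPM in WT and 336 and 287 CPM in KO (-0.10 ± 0.12, adjusted p = 0.587). COL11A2 was low, at 3.60 and 3.53 CPM in WT and 3.26 and 2.52 CPM in KO (-0.30 ± 0.32, adjusted p = 0.530), and COL27A1 had 3.17 and 6.60 CPM in WT and 6.52 and 6.44 CPM in KO (0.41 ± 0.37, adjusted p = 0.461).

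Part of this class varied between the WT libraries. S3 was higher than S5 by a factor of 2.46 in COL5A2, 2.23 in COL1A2, 1.90 in COL2A1 and 1.86 in COL3A1, whereas the factor was 1.15 in COL1A1, 1.11 in COL5A1 and 0.907 in COL11A1. Without WT S3 the log2 fold change of COL5A2 was 0.48, so its direction rests on that library. That of COL1A2 was -0.40 without WT S5, -0.24 without KO S1 and 0.77 without WT S3, so no direction can be given for it. COL5A3 was called higher without WT S3, at 3.12, and was at 0.60 without WT S5. COL27A1 was called higher without WT S5, at 1.02, and was at -0.027 without WT S3. The calls of COL1A1, COL3A1, COL5A1, COL2A1 and COL24A1 stood with any 1 NPC library left out.

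Type IV genes lie in pairs, head to head, and each pair shares the stretch from which both genes are read. The stretches are shown because the genes of a pair did not change equally. The first holds all 126 bases between the start sites of COL4A1 (to the left, minus strand) and COL4A2 (to the right, plus strand), chr13:110307158-110307283 in GRCh38.p14. The second holds the 250 bases before the start of COL4A5 on its own strand, chrX:108439588-108439837, out of 379 bases that separate it from the nearer start of COL4A6. Both were taken from RefSeq promoters of GRCh38.p14 and are printed on the plus strand. Capitals mark matches, on either strand, to GGGCGG, called the GC box, to the CCAAT box or to the TATA box with the letters TATAAA.
COL4A1-COL4A2: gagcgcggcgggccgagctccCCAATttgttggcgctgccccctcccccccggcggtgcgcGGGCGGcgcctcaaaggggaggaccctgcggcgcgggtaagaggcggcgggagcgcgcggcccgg
COL4A5: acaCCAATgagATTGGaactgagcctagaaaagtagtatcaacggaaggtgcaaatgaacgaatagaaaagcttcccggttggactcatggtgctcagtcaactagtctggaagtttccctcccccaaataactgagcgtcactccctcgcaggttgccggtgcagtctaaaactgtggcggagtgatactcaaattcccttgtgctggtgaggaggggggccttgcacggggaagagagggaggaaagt

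The COL4A1-COL4A2 stretch held 1 CCAAT match, 1 GC box match and no TATA box match, with 20 CpG and a GC content of 80.2%. The COL4A5 stretch held 2 CCAAT matches, 1 on each strand, no GC box and no TATA box match, with 8 CpG and a GC content of 51.2%. It leaves out the bases next to COL4A6, so these counts do not describe all that lies between the 2 genes. COL4A6 had a GC box match, and also a CCAAT match, within the 126 bases before at least 1 of its start sites. In the 126 bases before the start, 21.1% of the 35116 RefSeq promoters had a CCAAT match, 34.6% a GC box match and 5.9% a TATA box match. In 250 bases the shares were 32.0%, 42.6% and 10.7%. Promoters of 29 of the 41 collagen genes were in the table. Counted by gene, within 126 bases 16 of the 29 (55.2%) had a GC box match against 38.6% of the 27305 genes of the table, 7 (24.1%) a CCAAT match against 25.1%, and 3 (10.3%) a TATA box match against 7.3%. Such matches describe the letters and are not evidence of a bound factor.

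COL4A1 and COL4A2 encode the chains of the type IV network that nearly all basement membranes contain. In NPCs COL4A1 (chromosome 13, 110801310 to 110959504, hg19) had 78.2 and 179 CPM in WT and 664 and 757 CPM in KO, a log2 fold change of 2.47 ± 0.35 (adjusted p = 0.00246). COL4A2 (110958159 to 111165556) had 178 and 364 CPM in WT and 405 and 503 CPM in KO. All KO values of COL4A2 were above the WT values, but it was not called (0.75 ± 0.30, adjusted p = 0.109). Relative to COL4A2, per kilobase, COL4A1 was at 0.577 to 0.646 in WT NPCs, 1.98 to 2.15 in KO NPCs, 0.503 to 0.529 in WT HEK293T cells and 0.450 to 0.521 in KO HEK293T cells. The KO NPC libraries thus stood apart from the other 8. WT S5 was higher than WT S3 by a factor of 2.29 in COL4A1 and 2.04 in COL4A2, so the ratio varied less between the WT libraries than either gene did. Without WT S5 COL4A2 was called higher, at 1.34, and COL4A1 was at 3.18, whereas without WT S3 COL4A2 was at 0.32 and COL4A1 at 1.99. The annotated spans overlap by 1346 bases on opposite strands, and the strand setting of the counting is not given in the sources used here, so reads in the overlap may not have been told apart.

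COL4A5 and COL4A6 encode the chains of a more restricted type IV network. COL4A6 (X, 107398837 to 107682727) had 140 and 99.8 CPM in WT NPCs and 10.5 and 8.38 CPM in KO, a log2 fold change of -3.67 ± 0.21 (adjusted p = 8.05e-05). COL4A5 (X, 107683068 to 107940775) fell less, from 149 and 101 CPM to 60.7 and 55.0 CPM (-1.11 ± 0.19, adjusted p = 0.00508). COL4A6 relative to COL4A5, per kilobase, was 1.20 to 1.26 in WT NPCs and 0.195 to 0.222 in KO NPCs, against 0.793 to 1.07 in WT and 0.805 to 0.992 in KO HEK293T cells. COL4A6 has 2 RefSeq start sites, 1036 bases apart, and counts per gene do not show which was used. Without WT S3 the fold change of COL4A5 was under 2, at -0.81, and the call was lost, whereas COL4A6 was called with any 1 NPC library left out. COL4A4, of the network known from the kidney glomerulus, had 0.473 and 0.256 CPM in WT and 0.247 and 0.0450 CPM in KO, from 1 to 10 counts a library, and was not called (-1.31 ± 1.07, adjusted p = 0.409).

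**Figure D4:**
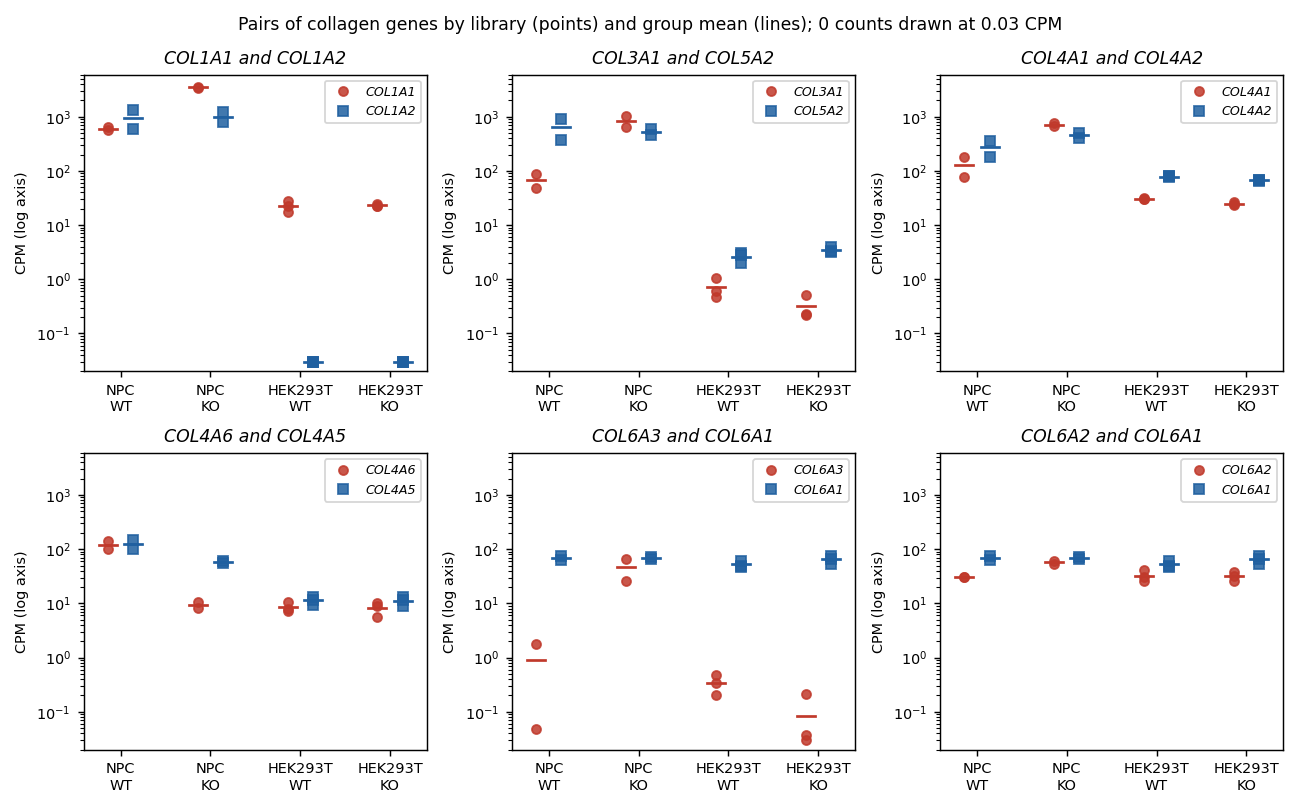
CPM of pairs of collagen genes in each library (points) with the group mean (lines), on a log axis, for WT and KO NPCs and HEK293T cells. Libraries with 0 counts are drawn at 0.03 CPM. COL1A1, COL3A1, COL4A1 and COL6A3 rise in KO NPCs beside COL1A2, COL5A2, COL4A2 and COL6A1, which were not called, and COL4A6 falls further than COL4A5.

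In the beaded filament class, type VI collagen is built from α1, α2 and a large α3 chain, and links cells to the surrounding matrix. COL6A1 was not called, at 62.0 and 75.9 CPM in WT NPCs and 67.4 and 71.8 CPM in KO (0.01 ± 0.13, adjusted p = 0.958). COL6A2 rose by less than the fold threshold, from 30.6 and 30.9 CPM to 53.4 and 61.4 CPM (0.90 ± 0.13, adjusted p = 0.00304). COL6A3, the gene of the α3 chain, had 0.0473 and 1.79 CPM in WT, from 1 and 35 counts, and 66.8 and 26.3 CPM in KO (5.69 ± 0.88, adjusted p = 0.00367). It was called with any 1 NPC library left out, but the size of its log2 fold change moved to 9.76 without WT S5, 4.69 without WT S3 and 4.85 without KO S1. COL6A5, of an alternative to the α3 chain, went from 0 counts in WT S3 and S5 to 0.790 and 1.31 CPM in KO, from 16 and 29 counts. It was called higher and was at least 7.09-fold higher than the level of 3 counts a library; without KO S2 the adjusted p was 0.0642. COL6A6 had at most 7 counts in any NPC library.

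The network-forming and anchoring collagens included COL8A1, which had the smallest adjusted p of the members in NPCs, though not the largest fold change. COL8A1, of the short chain type VIII collagen found in vessel walls and in the membrane under the corneal endothelium, rose from 71.0 and 91.0 CPM to 813 and 781 CPM (3.30 ± 0.15, adjusted p = 3.28e-05). Its partner COL8A2 had 0.237 and 0.461 CPM in WT and 0.889 and 0.991 CPM in KO, from at most 22 counts, and was not called (1.42 ± 0.64, adjusted p = 0.141). COL7A1, whose product forms the anchoring fibrils under the epidermis, rose from 0.568 and 0.665 CPM to 3.70 and 7.43 CPM (3.17 ± 0.47, adjusted p = 0.00313), or by 2.56 without KO S2. COL26A1, an unclassed member, was the most abundant of the other classes per kilobase in WT NPCs. It fell from 128 and 106 CPM to 34.6 and 31.7 CPM (-1.82 ± 0.14, adjusted p = 0.000223). The multiplexins, basement membrane proteoglycans that can be cut to release endostatin-like fragments, were not called. COL18A1 had 73.8 and 132 CPM in WT and 81.1 and 86.2 CPM in KO (-0.30 ± 0.25, adjusted p = 0.414), and COL15A1 had 2.98 and 3.12 CPM in WT and 6.77 and 4.95 CPM in KO (0.94 ± 0.30, adjusted p = 0.0575).

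The FACIT collagens, which sit on the surface of fibrils and have helices broken by other sequence, were split. COL12A1 rose from 7.53 and 9.93 CPM to 34.9 and 19.96 CPM (1.65 ± 0.30, adjusted p = 0.00675), and without KO S1 its adjusted p was 0.0615. COL16A1 rose from 0.0473 and 0.205 CPM, from 1 and 4 counts, to 12.99 and 8.56 CPM (6.38 ± 0.55, adjusted p = 0.000342), with 7.65 without WT S5 and 5.67 without WT S3. COL21A1 was called higher on 0 and 3 counts in WT and 34 and 12 in KO (adjusted p = 0.0467), and the call was lost without either KO library and with voom. With at most 3 counts in a WT library the size of its change is not given. In the type IX genes, whose product decorates type II fibrils, COL9A1 fell from 8.0 and 10.8 CPM to 3.21 and 3.38 CPM (-1.51 ± 0.28, adjusted p = 0.00710) and COL9A2 from 11.03 and 9.01 CPM to 4.35 and 4.50 CPM (-1.18 ± 0.25, adjusted p = 0.0124). The third, COL9A3, had 1.99 and 1.07 CPM in WT and 2.47 and 1.62 CPM in KO and was not called (0.41 ± 0.47, adjusted p = 0.566). COL22A1 fell from 15.7 and 8.45 CPM to 3.61 and 3.42 CPM (-1.78 ± 0.34, adjusted p = 0.00862). The calls of COL9A1, COL9A2 and COL22A1 were lost when either KO library was left out, with adjusted p of 0.0541 to 0.109, and that of COL9A2 also in 1 fit of all libraries.

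The transmembrane collagens, which are anchored in the cell surface with the collagen helix outside, changed in both directions. COL13A1 rose from 1.80 and 6.96 CPM to 42.3 and 38.9 CPM (3.22 ± 0.51, adjusted p = 0.00399), and its log2 fold change was 4.48 without WT S5 and 2.54 without WT S3. COL23A1 rose from 0.237 and 0.307 CPM to 2.37 and 2.48 CPM (3.13 ± 0.49, adjusted p = 0.00390). COL17A1, a hemidesmosome component of epithelia, fell from 3.46 and 16.1 CPM to 0.691 and 0.856 CPM (-3.65 ± 0.74, adjusted p = 0.0108). The WT libraries of COL17A1 were far apart, with log2 fold changes of -2.15 without S5 and -4.37 without S3, and the call was lost with voom and without either KO library. COL25A1 had 9.33 and 6.35 CPM in WT and 4.69 and 3.83 CPM in KO (-0.88 ± 0.30, adjusted p = 0.0676), and was called lower without WT S5. The 4 other genes that were not called were COL6A6, COL14A1, COL19A1 and COL20A1, of which all but COL14A1 had at most 7 counts in any NPC library. COL19A1 had 1 and 4 counts in WT and 0 in both KO libraries, and COL20A1 0 in both WT libraries and 5 and 1 counts in KO, too few to give a fold change. COL14A1, with 64 counts in WT S5 and 5 to 11 in the other libraries, was called lower without WT S3.

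In HEK293T cells none of the 34 collagen genes tested was called, in either direction, by edgeR, DESeq2 or voom, beside 0.489% of the 19018 genes tested (93 genes; 0.478% higher and 0.0105% lower). DESeq2 gave no adjusted p for some low members, COL2A1, COL5A3 and COL15A1 among them, and so could not call those. Of the 34, 3 had an unadjusted p under 0.05, against 7.12% of all genes, and the median log2 fold change was 0.01, the same as over all genes. In 6 genes the groups did not overlap, 2 with KO above and 4 with KO below, where the share over all genes was 12.4%. The 3 with the low p were COL2A1 (0 to 1 counts in WT, 1 to 9 in KO), COL6A5 (6 to 23 counts in WT, 1 to 4 in KO) and COL21A1 (3 to 31 counts in WT, 0 to 1 in KO). They were chosen for that p, and their adjusted p were 0.672, 0.502 and 0.310. In NPCs COL2A1 went down and the other two up. A further 7 members had too few counts to be tested.

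None of the expressed chains of HEK293T cells was called. COL1A1 had 27.9, 17.8 and 22.6 CPM in WT and 22.4, 22.3 and 24.7 CPM in KO (0.02 ± 0.19, adjusted p = 0.987). COL1A2 had 0 counts in all 6 libraries, which allows up to 0.0921 to 0.131 CPM a library, so the message of α1(I) was present without a detectable message of its partner. COL11A1 and COL22A1 were also at 0 counts in all 6. COL4A2 had 79.0, 77.6 and 78.9 CPM in WT and 65.5, 66.8 and 67.9 CPM in KO, and COL4A1 30.2, 29.9 and 31.7 CPM in WT and 24.2, 26.5 and 23.3 CPM in KO. Both genes were lower in every KO library than in every WT library, by -0.23 ± 0.13 and -0.31 ± 0.15 on the log2 scale, but neither was called (adjusted p = 0.752 and 0.720). COL4A5 had 9.49 to 12.9 CPM in WT and 8.95 to 13.02 CPM in KO (-0.01 ± 0.22, adjusted p = 0.991), and COL4A6 7.31 to 10.7 CPM in WT and 5.63 to 10.1 CPM in KO (-0.06 ± 0.26, adjusted p = 0.971). COL6A1, the highest per kilobase, had 46.5 to 60.9 CPM in WT and 54.2 to 76.2 CPM in KO (0.31 ± 0.17, adjusted p = 0.757), and COL6A2 26.4 to 40.8 CPM in WT and 26.4 to 37.6 CPM in KO.

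The remaining fibrillar and type IV genes of HEK293T cells were not called either. COL5A1 had 12.6 to 13.2 CPM in WT and 9.68 to 16.99 CPM in KO (0.00 ± 0.22), COL5A2 2.03 to 2.99 and 3.19 to 3.89 CPM (0.40 ± 0.28), and COL27A1 3.41 to 4.30 and 2.95 to 4.54 CPM (-0.08 ± 0.28). COL3A1 had 0.467 to 1.07 CPM in WT and 0.215 to 0.524 CPM in KO (-1.17 ± 0.55, adjusted p = 0.718). COL24A1 had 0.271 to 0.585 CPM in WT and 0.430 to 1.18 CPM in KO, and COL11A2 0.203 to 0.334 and 0.154 to 0.743 CPM. COL4A4 ranged from 0.508 to 1.94 CPM in WT and from 0.154 to 4.28 CPM in KO (0.68 ± 0.91). COL5A3 did not exceed 4 counts. The standard errors of the 8 members over 10 CPM in HEK293T cells were 0.13 to 0.25 on the log2 scale, whereas COL5A3, COL6A6 and COL15A1, at 4 counts or fewer, had standard errors of 1.33 to 1.60.

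The effect of the KO differed between the cell types for 18 of the 40 collagen genes tested in a fit of all 10 libraries, beside 12.2% of the 19255 genes tested. In 12 the effect was higher in NPCs and in 6 lower, where the shares over all genes were 6.01% and 6.22%. The 6 were 3 without HEK293T WT S17, where 9.49% of all genes were called in either direction. Without NPC KO S1, NPC KO S2 or NPC WT S3 they were also fewer, and fewer of all genes were called than in the main fit. The difference, NPC effect minus HEK293T effect on the log2 scale, was 2.53 ± 0.23 for COL1A1 (adjusted p = 3.65e-05), 4.81 ± 0.62 for COL3A1 (adjusted p = 0.000345), 2.80 ± 0.36 for COL4A1 (adjusted p = 0.000345) and -3.59 ± 0.38 for COL4A6 (adjusted p = 0.000104). It was 1.78 ± 0.28 for COL5A1 (adjusted p = 0.00136) and -1.08 ± 0.30 for COL4A5 (adjusted p = 0.0299). COL4A2 was not called, with 1.0002 ± 0.32 (adjusted p = 0.0534), but was called with voom and without NPC WT S5. COL6A2 passed the adjusted p but not the fold threshold, with 0.95 ± 0.29 (adjusted p = 0.0443), and was called without HEK293T WT S16 or KO S19. Without NPC WT S3 COL5A3 was called, and without NPC WT S5 COL5A2. COL1A2, COL11A1 and COL22A1 have no HEK293T counts, so that their effects cannot be compared. Members called in NPCs and not in this test were COL9A1, COL12A1, COL17A1 and COL22A1, all at 11 counts or fewer in every HEK293T library. The difference of COL4A1 was 3.498 without NPC WT S5, and that of COL4A5 lost its call in turn without NPC WT S3, either NPC KO library, HEK293T WT S17, KO S19 or KO S20.

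Genes that act on collagen were examined as 5 lists, by the order of the steps. In the endoplasmic reticulum, 9 of 18 genes of modification and folding were called higher in KO NPCs and 1 lower, with a median log2 fold change of 0.86, beside 8.45% and 8.36% of all genes and a median of -0.02. P3H2, a prolyl 3-hydroxylase, rose from 79.5 and 89.4 CPM to 384 and 413 CPM (2.24 ± 0.12). P4HA3 and P4HA2, catalytic subunits of the prolyl 4-hydroxylase that stabilises the helix, rose by 2.77 ± 0.53 and 1.96 ± 0.23 on the log2 scale. PLOD2, the lysyl hydroxylase of the telopeptides, rose from 22.0 and 18.3 CPM to 90.1 and 74.3 CPM (2.03 ± 0.16). COLGALT2, a collagen galactosyltransferase, fell from 50.04 and 35.4 CPM to 16.4 and 10.4 CPM (-1.68 ± 0.27). SERPINH1, the collagen chaperone HSP47, had 378 and 344 CPM in WT and 497 and 434 CPM in KO (0.36 ± 0.11, adjusted p = 0.0524), and P4HB, a shared subunit of the 4-hydroxylase, 577 and 517 CPM in WT and 535 and 587 CPM in KO. Of 7 genes of procollagen export only SEC24D, a COPII coat component, was called, rising from 54.6 and 40.2 CPM to 153 and 145 CPM (1.65 ± 0.16).

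Outside the cell the lists moved as follows. Of 8 genes of propeptide cleavage 4 were called higher and 1 lower in KO NPCs, where 8.45% of all genes were called higher and 8.36% lower. ADAMTS14, a procollagen N-proteinase, rose from 0 and 0.102 CPM to 3.01 and 1.44 CPM, and TLL1, a C-proteinase, from 17.2 and 0.973 CPM to 89.3 and 84.6 CPM, with WT libraries far apart. PCOLCE2 and PCOLCE, enhancers of the C-proteinase, rose by 1.74 ± 0.32 and 1.37 ± 0.33 on the log2 scale. ADAMTS3, an N-proteinase known to act on type II procollagen, fell from 48.4 and 31.8 CPM to 6.96 and 6.26 CPM (-2.60 ± 0.24). Of the 5 lysyl oxidases, which cross-link the fibrils, 4 were called higher and LOXL3 was not. LOXL4 rose from 1.42 and 2.97 CPM to 40.9 and 75.7 CPM (4.74 ± 0.42), LOX from 32.9 and 17.6 CPM to 526 and 476 CPM (4.31 ± 0.29), LOXL2 from 123 and 129 CPM to 875 and 775 CPM (2.71 ± 0.11), and LOXL1 from 14.5 and 18.2 CPM to 53.6 and 51.5 CPM (1.68 ± 0.16). Of 11 collagen receptor genes tested, 4 were called higher. They were the integrin subunits ITGA1, from 13.2 and 15.05 CPM to 268 and 172 CPM, and ITGA11, from 0.426 and 1.69 CPM to 62.4 and 56.8 CPM, the receptor kinase DDR2, from 13.9 and 1.59 CPM to 73.8 and 46.3 CPM, and LAIR1, from 0 counts to 1.14 and 1.13 CPM. ITGB1, the shared β1 subunit, was not called, at 385 and 403 CPM in WT and 412 and 387 CPM in KO, and DDR1 was not called. In HEK293T cells, where 0.489% of all genes were called, no gene of the 5 lists was, and the medians ranged from -0.14 to 0.17.

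**Figure D5:**
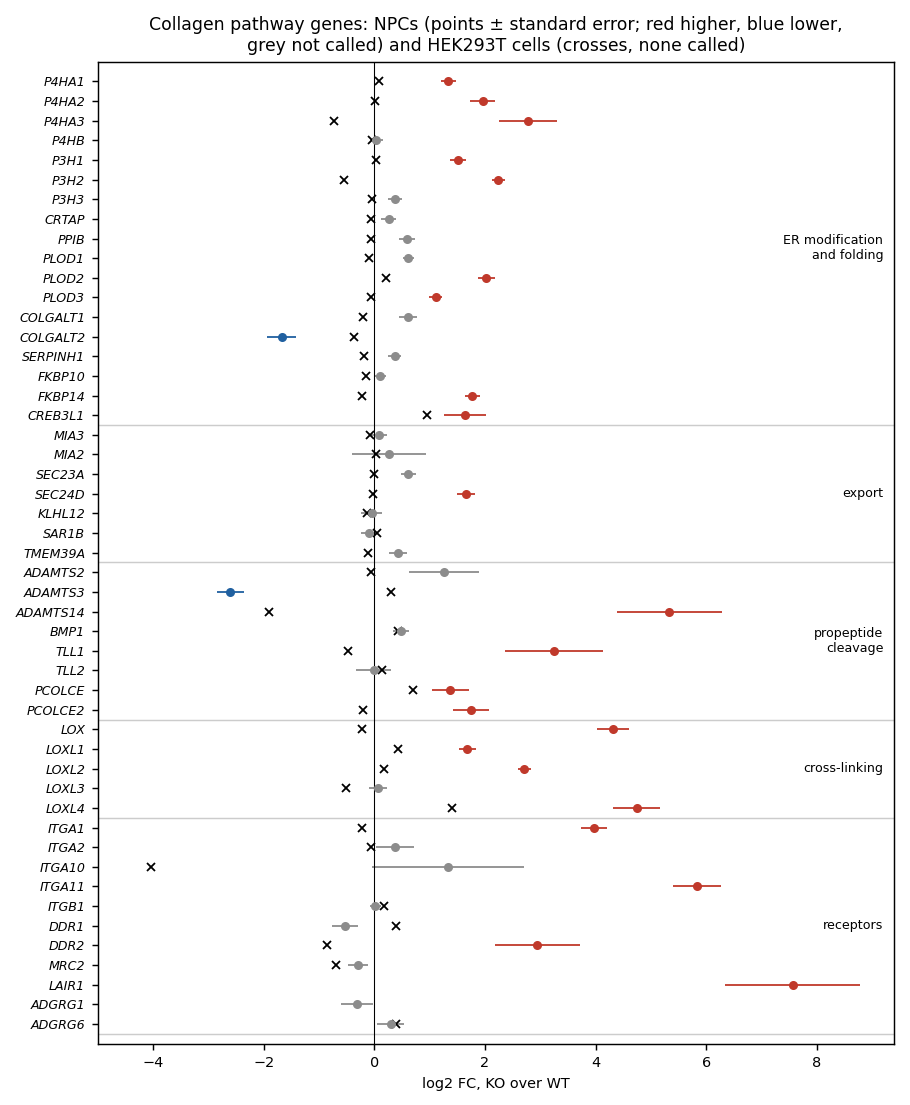
Log2 fold change of KO over WT for the genes of collagen modification, export, propeptide cleavage, cross-linking and reception, with points and standard errors for NPCs and crosses for HEK293T cells. In NPCs 4 of 5 lysyl oxidases and 9 of 18 genes of the endoplasmic reticulum list are called higher (red), 2 genes over all lists are called lower (blue), and no cross was called.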

How the data were processed

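RNA was extracted with a column kit and libraries were made with a stranded mRNA kit, in 3 WT and 3 ZNF274 KO HEK293T and 2 WT and 2 KO NPC samples. Per the labels and the paper's methods the authors aligned reads to the hg19 genome by HISAT2, and featureCounts gave the number of unique reads per gene on an annotation of genes and transposable elements; versions, annotation release and the strand setting of the counting are not given in the sources used here. The deposited values are raw counts per gene, 1 table a cell type, without normalization. Symbols, spans and exons came from GENCODE 44 lifted to GRCh37, which matched 23273 of 24050 listed genes.

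The counts were tested with edgeR 4.0.16 (TMM scaling, quasi-likelihood F test, Benjamini-Hochberg adjustment over all genes tested), in each cell type separately and, for the difference between KO effects, over all 10 libraries. Genes with fewer total counts than libraries were left out. A call required an adjusted p under 0.05 and a fold change over 2. Standard errors of log2 fold changes were the fold change divided by the root of F. The study's methods used voom, which is given here as an alternative (limma 3.58.1) beside DESeq2 1.42.0, since the values are counts. Other alternatives were 2 scalings, 2 filters on low counts, other thresholds, 1 fit of all libraries, each library left out, another class definition and another gene length. Levels are CPM, and CPM per kilobase of the union of annotated exons. A fold given as at least a value was set against 3 counts a library, since the size of a fitted fold change against a group at or under that level depends on the prior count; such limits cover counting error only, and reads are not molecules, as no molecular identifiers were used.

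On simulated counts the test found 97.0% of 3-fold changes in the NPC design, 98.5% in the HEK293T design and 95.5% for the difference, at 67 genes each. The changes were placed only in genes with ample counts, and the spread between libraries was assumed, not estimated from the replicates. These shares therefore do not give the power for members with few counts or a wide spread. No 2 libraries of a group agreed within sampling noise (chi-square per gene 10.5 to 81.9). Named genes were ZNF274, every member called in a comparison, every fibrillar and type IV member tested, the partner chains of types VI, VIII, IX, XV and XVIII, and up to 4 called genes in each direction of a pathway list with a mean of at least 1 CPM; SERPINH1, P4HB, LOXL3, ITGB1, DDR1 and the members with few counts were named after their values were seen. Members, classes, pathway lists and marker lists were chosen with earlier results of these data known. The value of 1 neural progenitor marker is not reported here.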

Additional observations from a re-analysis of the deposited data

Results flagged for a closer look

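For 18 collagen genes the effect of the KO differed between NPCs and HEK293T cells by the test of the difference itself, in the edgeR fit of all 10 libraries. All differences are the NPC effect minus the HEK293T effect on the log2 scale. Among fibrillar genes they were -5.53 for COL2A1, -3.01 for COL24A1, 1.78 for COL5A1, 2.53 for COL1A1 and 4.81 for COL3A1. Among type IV genes they were -3.59 for COL4A6, -1.08 for COL4A5 and 2.80 for COL4A1. In the other classes the lower differences were -2.23 for COL26A1 and -1.79 for COL9A2, and the higher ones 2.78 for COL8A1, 2.85 for COL23A1, 3.63 for COL7A1, 3.64 for COL13A1, 5.74 for COL16A1, 7.47 for COL6A3, 7.88 for COL21A1 and 10.08 for COL6A5. Those of COL6A5, COL21A1 and COL2A1 are fitted against a group with at most 3 counts in any library and are no measure of size.

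The size of several of these differences rests on few HEK293T or WT NPC counts. COL2A1 had at most 9 counts in a HEK293T library, COL16A1 at most 14, COL6A3 at most 14, COL8A1 at most 7 and COL23A1 at most 12. COL6A5 had 0 counts in WT NPCs and 1 to 23 in HEK293T cells, and COL21A1 had 31 counts in WT HEK293T S16 and at most 8 in the other 5 HEK293T libraries. Without NPC WT S5 the difference was 11.57 for COL6A3, 7.02 for COL16A1 and 4.89 for COL13A1. Without NPC WT S3 it was 6.49 for COL6A3, 5.03 for COL16A1 and 2.97 for COL13A1, without NPC KO S1 6.67 for COL6A3 and without NPC KO S2 3.03 for COL7A1, and without HEK293T KO S19 it was 9.44 for COL6A3. The call was lost for COL2A1 without HEK293T KO S19 and with voom (adjusted p = 0.0537), for COL24A1 and COL21A1 without NPC KO S1, and for COL9A2, COL23A1 and COL26A1 when any 1 of several libraries, either NPC KO library among them, was left out. That of COL9A2 was also lost with DESeq2 size factors (adjusted p = 0.0508). COL26A1 was at -1.39 without HEK293T KO S20. COL1A1, COL4A1, COL4A5, COL4A6 and COL5A1 had over 100 counts in each of the 10 libraries.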

How the results depend on the processing

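None of the 22 NPC calls or the 18 calls of the difference between cell types changed direction under the alternatives run, and no collagen gene was called in HEK293T cells under any of them. Of the 22 NPC calls 14 held throughout, and of the 18 calls of the difference 11 held. The total of NPC calls was 22 with DESeq2, DESeq2 size factors, library size alone or either filter. It was 20 with voom, 19 at an adjusted p under 0.01 and 21 in 1 fit of all libraries. Over all genes the share called was 16.8% in the main test, 16.1% with DESeq2, 17.2% with library size alone and 21.8% with filterByExpr. It was 15.9% with voom, 10.8% at an adjusted p under 0.01 and 17.4% in 1 fit. Both the total and this share fell without either KO library and rose without either WT library. The called lower genes in NPCs ranged from 5, without KO S1 or S2, to 10, and the called genes of the other classes from 8 to 15. The genes with a lower effect in NPCs than in HEK293T cells were 3 at an adjusted p under 0.01, where 6.36% of all genes were called in that test. With a HEK293T library left out they were 3 to 6, where the share over all genes was 9.49 to 12.9%. They were also fewer without NPC WT S3 or either NPC KO library. The causes were not tested.

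The genes that changed sign were not called in the main test. With library size alone, which moved the median of all genes to -0.13 in NPCs and 0.10 in HEK293T cells, COL6A1 was at -0.10 and COL1A2 at -0.031 in NPCs, and in HEK293T cells COL5A1 was at 0.091, COL6A2 at 0.061, COL4A5 at 0.066, COL27A1 at 0.0041 and COL4A6 at 0.018. With filterByExpr COL6A1 was at -0.0034 in NPCs and COL5A1 at 0.0020 in HEK293T cells, and with voom COL4A4 was at -0.35 in HEK293T cells. With a library left out, the log2 fold change in NPCs ranged from -0.22 to 0.00015 for COL11A1, from -0.12 to 0.16 for COL6A1, from -0.40 to 0.77 for COL1A2, from -0.66 to 0.17 for COL18A1, from -0.027 to 1.02 for COL27A1 and from -0.83 to 0.48 for COL5A2. In HEK293T cells it ranged from -1.41 to 1.51 for COL4A4, from -0.081 to 1.05 for COL9A3, from -0.13 to 0.20 for COL1A1, from -0.25 to 0.17 for COL5A1, from -0.16 to 0.16 for COL6A2, from -0.52 to 0.017 for COL18A1, from -0.13 to 0.12 for COL4A5, from -0.29 to 0.040 for COL27A1, from -0.22 to 0.15 for COL4A6 and from -0.12 to 0.98 for COL11A2.

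With the longest annotated transcript as length, COL1A1 was at 588 CPM per kilobase in KO NPCs and its ratio to COL1A2 at 2.92 to 4.39 there and 0.496 to 0.959 in WT. An NPC arm left with 1 library was assumed to vary like the other arm. No paired analysis was possible because the labels give the groups no shared replicate numbers. Members at fewer than 10 counts have values that counting error alone can move, and 2 libraries an arm limit every NPC call.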

Other observations

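The 3 collagen genes listed in the HEK293T table alone are in no comparison of the members. COL4A3, which lies head to head with COL4A4 with 170 bases between the annotated spans, had 19, 0 and 1 counts in WT and 25, 2 and 5 in KO, and the libraries with most COL4A3, WT S15 and KO S18, were also those with most COL4A4, at 58 and 98 counts. COL28A1 had at most 2 counts in a library and COL10A1 had 0 counts in all 6.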
